A study of Mus musculus with 15 samples.

Results

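Glucose enters the mouse beta cell through Slc2a2, the low-affinity transporter GLUT2, and is held there once it has been phosphorylated to glucose 6-phosphate. G6pc2 encodes a glucose 6-phosphatase catalytic subunit that is largely restricted to islets and turns glucose 6-phosphate back into glucose, which lowers how much glucose is metabolized. The ATP made from glucose closes the KATP channel, which is built from Kcnj11 (Kir6.2), the pore, and Abcc8 (SUR1), the sulfonylurea receptor, and its closure depolarizes the membrane and opens voltage-gated calcium channels. Alpha and delta cells of the islet carry KATP channels as well.

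These 4 genes, Slc2a2, G6pc2, Kcnj11 and Abcc8, were taken by their symbols from a table of 20308 genes, and all 4 were among the 14151 genes with enough signal to be tested. The 15 libraries come from whole islets of C57BL/6 mice, in 3 groups of 5. Islets were transduced with adenovirus for ca-Nfatc1 or ca-Nfatc2, constitutively active forms of mouse transcription factors of the NFAT family, or with adenovirus for GFP as the control, and RNA was taken after 48 hr. On 5 separate days, islets of 6 mice were combined and the 3 viruses were applied to portions of that pool, so libraries with the same number share their islets. All groups received a virus and no untransduced islets were analysed here. The cytomegalovirus promoter of the viruses is not specific to a cell type. The sources used here do not give the age or sex of these mice. Values are normalized expected counts, the reads that RSEM assigned to a gene divided by a factor per library. Log2 fold changes are on the log2(value + 1) scale, and a gene was called at a limma adjusted p under 0.05.

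Library depth ranged between 13358321 and 21129008 expected counts. Nfatc1 stood at 24705 to 29292 in ca-Nfatc1 libraries and 166 to 291 in GFP libraries, and Nfatc2 stood at 37600.3 to 89098 in ca-Nfatc2 libraries and 414 to 693 in GFP libraries, so the ca-NFAT libraries carried the transcript of their label, and GFP transcript was not measured here. The median log2 fold change over all tested genes was -0.02 with ca-Nfatc1 and 0.01 with ca-Nfatc2 against GFP. Quantile normalization moved the first to -0.12, and moved the calls for ca-Nfatc1 to 3266 higher and 5272 lower genes, against 4015 higher and 4022 lower genes with the deposited scaling. Scaling to equal totals moved them the other way, to a median of 0.04 and 4497 higher and 3273 lower genes. No log2 fold change of a member changed sign under equal totals or quantile normalization.

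The 4 genes did not respond alike. With ca-Nfatc1, Slc2a2, G6pc2 and Kcnj11 fell and Abcc8 did not pass the test. With ca-Nfatc2 all 4 fell, and Slc2a2 fell most, to 19.1% of its mean in GFP islets. Calls were common in these libraries, since 28.4% of all tested genes were lower with ca-Nfatc1 and 28.4% were higher, while ca-Nfatc2 lowered 32.8% and raised 35.7%. The members' counts of 3 of 4 and 4 of 4 lower stand beside these shares. How many of all tested genes had groups without overlap was not counted, so the separation of groups reported for the members is a description only. Their median log2 fold change was -1.07 with ca-Nfatc1 and -1.67 with ca-Nfatc2. Of all tested genes, 5% lay below -0.91 with ca-Nfatc1, as Slc2a2 and G6pc2 did, and 5% lay below -1.21 with ca-Nfatc2, as Slc2a2, G6pc2 and Kcnj11 did. Both contrasts use the same GFP libraries and are not independent of each other.

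**Figure D1:**
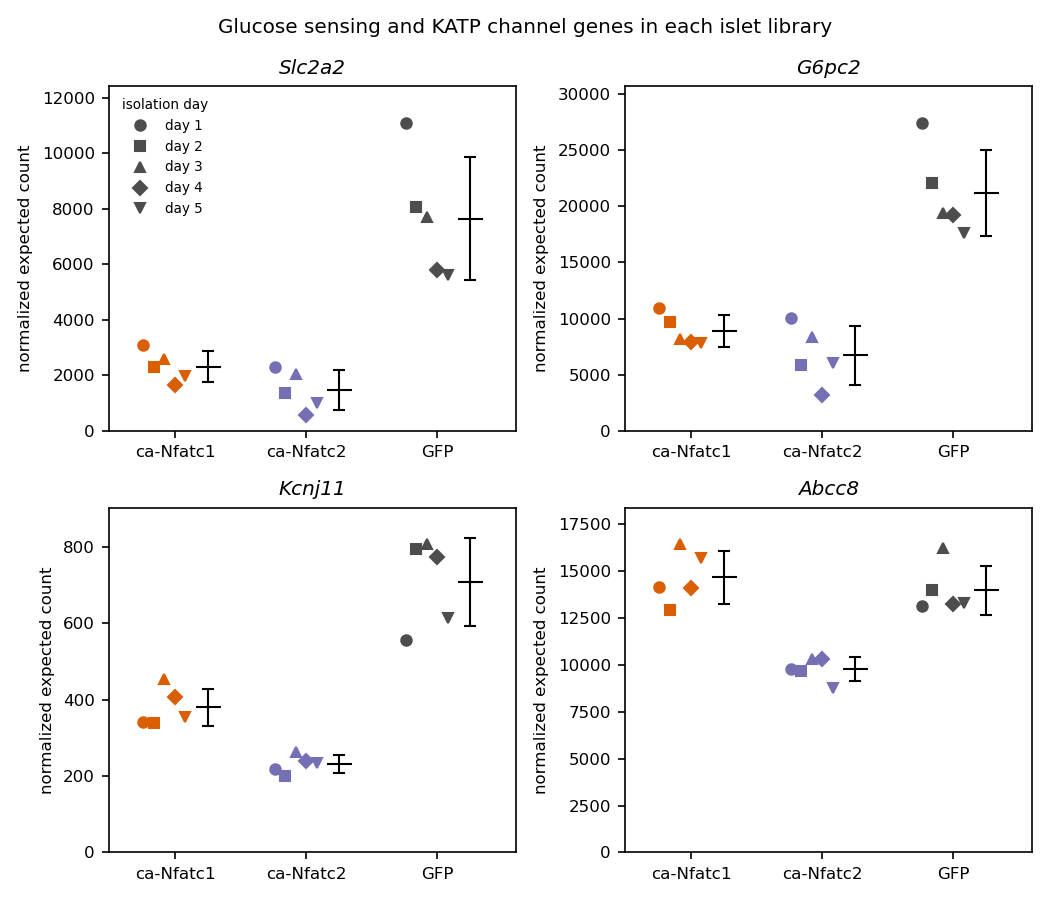
Normalized expected counts of the 4 members (vertical axes, starting at 0) in each library of the 3 groups (horizontal axis). Each point is 1 library, its shape gives the isolation day, and the black bar shows mean ± SD (n = 5). Slc2a2, G6pc2 and Kcnj11 lie lower in every ca-NFAT library than in any GFP library, and for Abcc8 the ca-Nfatc2 libraries, between 8771 and 10328, lie below all others, while the ca-Nfatc1 and GFP libraries overlap.

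Slc2a2 lies on chromosome 3 of mm10 (chr3:28697903-28728361, plus strand), and 2 of the 4 members, Slc2a2 and G6pc2, matched the table of RefSeq promoters and are shown to compare their matches to the NFAT core. The window of Slc2a2 (GRCm38.p6, chr3:28697653-28697952) holds 250 bases before the start and 50 after it. GGAAA, the core that NFAT proteins bind, would be in capitals on either strand, and there is no match in this window.
Slc2a2: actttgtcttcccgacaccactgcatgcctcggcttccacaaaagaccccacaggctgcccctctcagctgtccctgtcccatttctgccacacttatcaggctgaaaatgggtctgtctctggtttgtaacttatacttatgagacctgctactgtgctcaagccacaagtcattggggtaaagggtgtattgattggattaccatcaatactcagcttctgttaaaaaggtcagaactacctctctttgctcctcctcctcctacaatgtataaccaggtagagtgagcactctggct

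Slc2a2 was at 3076, 2290, 2573, 1669 and 1985 in the ca-Nfatc1 libraries of days 1 to 5. In the ca-Nfatc2 libraries it was at 2303, 1354, 2061, 569 and 1013, against 11090.3, 8046, 7690.4, 5804 and 5609 in the GFP libraries. The lowest GFP library was above every ca-NFAT library, while the ranges of the ca-Nfatc1 and ca-Nfatc2 groups overlapped. Within a day, ca-Nfatc1 islets held between 27.7% and 35.4% of the Slc2a2 of GFP islets, and ca-Nfatc2 islets held between 9.81% and 26.8%. The log2 fold change was -1.71 for ca-Nfatc1 (95% interval -2.33 to -1.08, limma adjusted p = 9.32e-05) and -2.51 for ca-Nfatc2 (95% interval -3.14 to -1.88, adjusted p = 7.76e-07).

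Slc2a2 was also lower with ca-Nfatc2 than with ca-Nfatc1 on 5 of 5 days, with a log2 fold change of -0.80 (95% interval -1.43 to -0.18, limma adjusted p = 0.0331). In this contrast 25.7% of all tested genes were lower and 23.6% higher, and 3 of the 4 members were called, all lower. The call for Slc2a2 was lost without any one of 5 libraries, namely ca-Nfatc1 replicate 1 (adjusted p = 0.0797), replicate 2 (0.0565) or replicate 3 (0.0667) and ca-Nfatc2 replicate 4 (0.0891) or replicate 5 (0.0784). Without ca-Nfatc2 replicate 4 the log2 fold change was -0.51. With the day as a block the adjusted p was 2.83e-04.

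G6pc2 lies on chromosome 2 (chr2:69211073-69227993, plus strand). The RefSeq promoter window at this start (GRCm38.p6, chr2:69210823-69211122) is shown in the same way, and it has 4 matches to GGAAA, in capitals, at -219 and -41 on the plus strand and at -192 and -24, as TTTCC, on the minus strand, counted from the start site.
G6pc2: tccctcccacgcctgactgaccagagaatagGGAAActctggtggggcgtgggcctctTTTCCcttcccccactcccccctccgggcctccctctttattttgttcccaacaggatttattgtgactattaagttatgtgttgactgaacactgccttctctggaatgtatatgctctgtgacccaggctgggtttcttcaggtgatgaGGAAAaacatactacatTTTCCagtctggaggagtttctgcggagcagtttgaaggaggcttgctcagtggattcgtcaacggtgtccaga

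Such matches are common, since 61.3% of the 32851 RefSeq windows of this length hold GGAAA at least once on either strand, and 2.65% hold it 4 times or more. The AP-1 motif TGANTCA, which 7.81% of all windows hold, was found in neither of these windows. The E box CANNTG, held by 72.3% of windows, was found 1 time in each. RefSeq has a second G6pc2 window, at a start inside the gene (chr2:69219699-69219998), with 2 matches to GGAAA, 0 to the AP-1 motif and 4 E boxes.

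G6pc2 was at 10959, 9704, 8152, 7875 and 7794 in the ca-Nfatc1 libraries of days 1 to 5. It was at 10032.5, 5869, 8388, 3223 and 6079 in the ca-Nfatc2 libraries, against 27419.5, 22088, 19441, 19201 and 17657 in the GFP libraries. Again no ca-NFAT library reached the lowest GFP library. The share of the same-day GFP value was narrow with ca-Nfatc1, between 40.0% and 44.1%, and wide with ca-Nfatc2, between 16.8% and 43.1%. The log2 fold change was -1.25 with ca-Nfatc1 (95% interval -1.71 to -0.78, limma adjusted p = 1.03e-04) and -1.74 with ca-Nfatc2 (95% interval -2.20 to -1.28, adjusted p = 1.69e-06).

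Between the ca-NFATs, G6pc2 was lower with ca-Nfatc2 on 4 of 5 days, with a log2 fold change of -0.49 (95% interval -0.95 to -0.03, limma adjusted p = 0.0724), which did not pass. The day block brought the adjusted p to 0.0112, and leaving out ca-Nfatc2 replicate 1 or replicate 3 brought it to 0.0128 and 0.0394. Without ca-Nfatc2 replicate 4 the log2 fold change was -0.25 (adjusted p = 0.207).

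Kcnj11, the pore of the channel, lies on the minus strand of chromosome 7 (chr7:46097123-46100952), 3570 bases downstream of Abcc8 (chr7:46104523-46180039, minus strand), and the annotated genes do not overlap. Kcnj11 was at 342, 339, 453, 407 and 356 in the ca-Nfatc1 libraries of days 1 to 5. Its values in the ca-Nfatc2 libraries were 218, 200.1, 262, 238 and 235, against 556, 794, 806, 773 and 613 in the GFP libraries. The 3 groups did not overlap at all: ca-Nfatc2 was lowest, GFP highest, and ca-Nfatc1 lay between them. Kcnj11 rested on the smallest number of reads of the 4 genes, 163 to 721 expected counts per library.

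The log2 fold change of Kcnj11 was -0.89 with ca-Nfatc1 (95% interval -1.14 to -0.65, limma adjusted p = 3.32e-06) and -1.60 with ca-Nfatc2 (95% interval -1.85 to -1.36, adjusted p = 1.19e-09). It was -0.71 for ca-Nfatc2 against ca-Nfatc1 (95% interval -0.95 to -0.47, adjusted p = 6.74e-05). In ca-Nfatc2 islets, Kcnj11 kept 25.2% to 39.2% of the same-day GFP value, and in ca-Nfatc1 islets 42.7% to 61.5%.

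Abcc8, the regulatory subunit, behaved differently. It was at 14181.5, 12939, 16433.5, 14096 and 15714.5 in the ca-Nfatc1 libraries of days 1 to 5 and at 9784, 9679, 10312, 10328 and 8771 in the ca-Nfatc2 libraries, against 13151, 13985, 16249, 13242 and 13310.2 in the GFP libraries. The ca-Nfatc1 and GFP groups overlapped, and every ca-Nfatc2 library was below every library of both other groups. With ca-Nfatc1 the log2 fold change was 0.07 (95% interval -0.10 to 0.23, limma adjusted p = 0.472), an interval that reaches from a small fall to a rise of 0.23. With ca-Nfatc2 it was -0.51 against GFP (95% interval -0.68 to -0.35, adjusted p = 1.50e-05) and -0.58 against ca-Nfatc1 (95% interval -0.75 to -0.42, adjusted p = 9.21e-06).

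**Figure D2:**
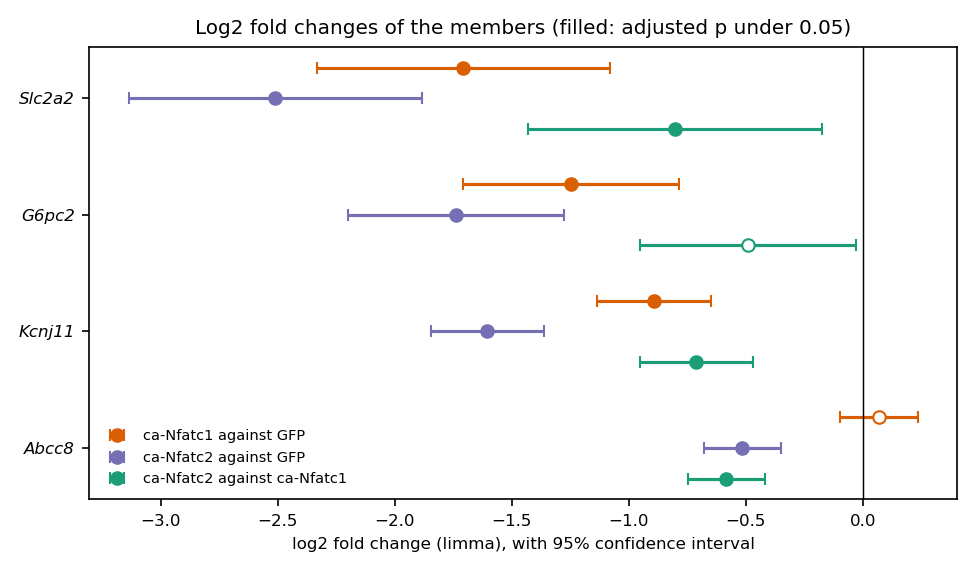
Log2 fold changes of the 4 members (rows) on the horizontal axis, with 95% confidence intervals from limma, for each ca-NFAT against GFP and for ca-Nfatc2 over ca-Nfatc1 (n = 5 libraries a group). Filled points passed an adjusted p of 0.05. The open points are G6pc2 between the ca-NFATs, at -0.49, and Abcc8 with ca-Nfatc1, at 0.07.

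The order of the days was partly shared between groups. The day 1 library was the highest for Slc2a2 and for G6pc2 in all 3 groups, and the day 3 library was the highest for Kcnj11 in all 3 groups. Among the ca-Nfatc2 libraries, replicate 4 had the lowest Slc2a2 and G6pc2 and the highest Nfatc2 (89098), and replicate 1 had the highest Slc2a2 and G6pc2 and the lowest Nfatc2 (37600.3). Between these extremes the order did not hold, as replicate 5 had lower Nfatc2 than replicate 3 (52659 against 54344). It also had lower Slc2a2 (1013 against 2061) and lower G6pc2 (6079 against 8388). The mean log2 value of the beta cell markers listed below was 13.11, 12.81, 13.14, 11.90 and 12.49 in the ca-Nfatc2 libraries of days 1 to 5. What set these orders was not tested. Replicate 4 was the lowest for Slc2a2 in the ca-Nfatc1 group as well. Kcnj11 and Abcc8 did not share these extremes, and replicate 4 had the highest Abcc8 of its group (10328).

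After the group means were removed, Slc2a2 and G6pc2 still moved together over the 15 libraries (Pearson r of residuals 0.94), and Kcnj11 moved with Abcc8 to a lesser degree (r = 0.55). Slc2a2 and G6pc2 showed little of this with Kcnj11 (r = -0.15 and -0.22). These are descriptions, since libraries of the same day share a pool of islets.

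Over the 15 libraries, and among 10906 other genes with a mean of at least 100, the genes most like Slc2a2 were Ucn3 (Pearson r = 0.994), Ero1lb (0.993) and Trpm5 (0.991). Those most like G6pc2 were Ucn3 (0.995), Trpm5 (0.990) and Tmsb15b2 (0.989). Ucn3 encodes urocortin 3, a peptide of mature beta cells, and averaged 2222 ± 422 with ca-Nfatc1 and 1420.2 ± 781 with ca-Nfatc2, against 7549 ± 1690.3 with GFP (SD, n = 5). Kcnj11 was most like Nod1 (0.988), Ldb1 (0.988) and Sh3bp4 (0.987), and Abcc8 was most like Arhgef28 (0.95), Phf1 (0.947) and Plekha6 (0.944). No gene appeared both in the lists of the transporter and phosphatase and in those of the channel subunits. The lists of Kcnj11 and Abcc8 shared no gene with each other either. With the group means kept, Kcnj11 had an r of 0.846 with Slc2a2, 0.825 with G6pc2 and 0.738 with Abcc8. With the group means removed, r stayed between 0.953 and 0.983 for the genes named with Slc2a2, and fell to between 0.592 and 0.723 for those named with Abcc8. These values describe the same 15 libraries and carry no test.

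Levels were also taken per kilobase of each gene's longest annotated transcript, which allows a rough comparison of genes. The order of these levels was the same in each group: G6pc2 highest, then Abcc8, Slc2a2 and Kcnj11. G6pc2 was at 4702 ± 734 with ca-Nfatc1 and 3551 ± 1376 with ca-Nfatc2, against 11185 ± 2032 with GFP, in normalized expected counts per kb (SD, n = 5). Abcc8 was at 3009 ± 286 with ca-Nfatc1 and 2004 ± 130.2 with ca-Nfatc2, against 2868 ± 268 with GFP on the same scale. In ca-Nfatc2 islets these neighbours overlapped, as the lowest G6pc2 library (1704 per kb) was below the highest Abcc8 library (2118 per kb). All other neighbours in the order were separate in every group.

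The next comparison asked whether the paired partners kept their balance within a library, which does not depend on how libraries were scaled. The Kcnj11 to Abcc8 ratio of normalized expected counts was 0.0258 with ca-Nfatc1 (0.0227 to 0.0289) and 0.0236 with ca-Nfatc2 (0.0208 to 0.0269), against 0.0503 with GFP (0.0424 to 0.0584), as geometric means with the range of 5 libraries. The log2 difference from GFP was -0.96 with ca-Nfatc1 and -1.09 with ca-Nfatc2 (both exact permutation p = 0.00794, adjusted over 18 ratio tests p = 0.0179), and 0.00794 is the smallest p that 5 against 5 libraries allow. Between the ca-NFATs the log2 difference was -0.13 (exact permutation p = 0.198, adjusted p = 0.325), and the groups overlapped. Per kb of each gene's longest annotated transcript, Abcc8 exceeded Kcnj11 24.9 to 1 with ca-Nfatc1 and 27.3 to 1 with ca-Nfatc2. With GFP it was 12.7 to 1, and these ratios depend on the lengths assumed.

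Slc2a1, the transporter GLUT1, did not pass in any contrast, at 611 ± 24.1 with ca-Nfatc1 and 566 ± 48.6 with ca-Nfatc2, against 622 ± 76.0 with GFP (SD, n = 5). The Slc2a2 to Slc2a1 ratio was 3.71 with ca-Nfatc1 (2.76 to 4.91) and 2.30 with ca-Nfatc2 (0.877 to 4.41), against 11.96 with GFP (7.58 to 19.3). The log2 difference from GFP in this ratio was -1.69 with ca-Nfatc1 and -2.38 with ca-Nfatc2 (both exact permutation p = 0.00794, adjusted p = 0.0179). In ca-Nfatc2 replicate 4, Slc2a2 was below Slc2a1 in normalized expected counts, at 0.877 to 1. Between the ca-NFATs the log2 difference of -0.69 did not pass (exact permutation p = 0.151, adjusted p = 0.271).

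**Figure D3:**
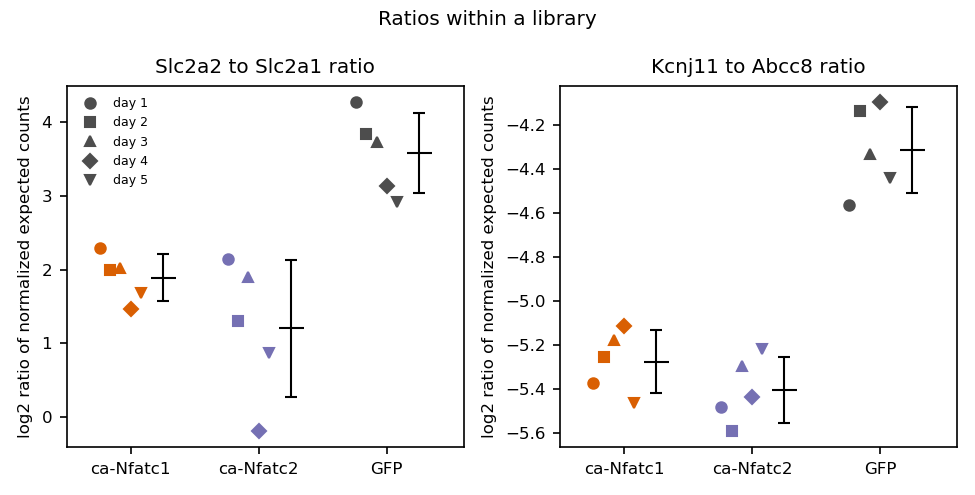
Log2 ratios of normalized expected counts within a library (vertical axes, which do not start at 0) for Slc2a2 to Slc2a1 and Kcnj11 to Abcc8, by group. Points are libraries, shapes are days and black bars are mean ± SD (n = 5). Both ratios lie lower in the ca-NFAT groups than in GFP, and for Kcnj11 to Abcc8 the ca-Nfatc1 and ca-Nfatc2 groups overlap, with means of -5.27 and -5.40.

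Whole islets hold several cell types, and in such samples fewer cells of a type and less RNA per cell cannot be told apart. The 8 beta cell markers (Ins1, Ins2, Iapp, Ucn3, Slc30a8, Mafa, Pdx1 and Nkx6-1) were lower in 6 of 8 cases with ca-Nfatc1 and in 8 of 8 with ca-Nfatc2. Their sum took 4.79% to 6.81% of the signal with ca-Nfatc1 and 3.11% to 5.48% with ca-Nfatc2, against 6.61% to 9.28% with GFP, and none was at 0. Ins2, the main insulin gene of the mouse, had a log2 fold change of -0.33 with ca-Nfatc1 (limma adjusted p = 0.206) and -0.73 with ca-Nfatc2 (adjusted p = 0.00618). Alpha cell markers were lower too, 4 of 6 with ca-Nfatc1 and 6 of 6 with ca-Nfatc2, at 1.26% to 1.53% and 0.982% to 1.32% of the signal, against 2.21% to 3.43% with GFP. Gcg, for glucagon, had log2 fold changes of -1.08 and -1.43. Delta and PP cell markers were lower in 4 of 4 cases with either ca-NFAT.

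Markers of other cells moved less evenly. Duct cell markers were higher in 4 and lower in 1 of 6 tested genes with either ca-NFAT, at 0.0469% to 0.0688% of the signal with ca-Nfatc1 and 0.0285% to 0.0730% with ca-Nfatc2, against 0.0468% to 0.0562% with GFP. Among the duct markers, Muc1 rose most (log2 fold changes 5.75 and 5.05), and Krt19 rose by 5.61 and 1.09. Krt7, which fell (-1.02 and -1.19), averaged 5983 with GFP, against 50.6 for Muc1 and 26.5 for Krt19. Of 4 tested acinar markers, ca-Nfatc1 raised 2 and lowered 2, and ca-Nfatc2 raised 0 and lowered 2. Acinar markers took at most 0.00246% of the signal in any library, and Ptf1a was at 0 in 14 of 15 libraries. Endothelial markers were lower in 0 of 6 cases with ca-Nfatc1 and 5 of 6 with ca-Nfatc2, and mesenchymal markers in 1 of 6 and 4 of 6. Leukocyte markers were higher in 1 of 5 with ca-Nfatc1 and in 2 of 5, with 1 lower, with ca-Nfatc2. The part of these cells in the members' values was not tested.

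Each member was then set against the mean log2 value of the 8 beta cell markers in its own library. Slc2a2 was lower relative to this mean (log2 difference -0.70 for ca-Nfatc1 and -0.90 for ca-Nfatc2), and neither group overlapped with GFP (both exact permutation p = 0.00794, adjusted p = 0.0179). The 8 markers themselves differed widely, with log2 fold changes from -1.76 to -0.28 with ca-Nfatc1 and from -2.59 to -0.54 with ca-Nfatc2. Slc2a2, at -1.71 and -2.51, lay within these ranges, and Ucn3 was the lowest marker in both. For G6pc2 the log2 difference from GFP on this scale was -0.23 with ca-Nfatc1 (exact permutation adjusted p = 0.159) and -0.12 with ca-Nfatc2 (adjusted p = 0.520). For Kcnj11 the values were 0.12 (exact permutation adjusted p = 0.571) and 0.01 (adjusted p = 0.984). For both genes the ca-NFAT and GFP groups overlapped on this scale.

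Abcc8 stood apart, being higher relative to the markers by 1.08 with ca-Nfatc1 and by 1.10 with ca-Nfatc2 on the log2 scale, again with no overlap with GFP (both exact permutation p = 0.00794, adjusted p = 0.0179). It was at 0.33, 0.25, 0.72, 0.65 and 0.75 relative to the marker mean in the ca-Nfatc1 libraries and at 0.15, 0.43, 0.19, 1.44 and 0.61 in the ca-Nfatc2 libraries, against -0.69, -0.65, -0.52, -0.60 and -0.23 in the GFP libraries. The marker mean itself averaged 13.3 with ca-Nfatc1 and 12.7 with ca-Nfatc2, against 14.3 with GFP (log2). Abcc8 on its own did not pass with ca-Nfatc1 (log2 fold change 0.07) and fell with ca-Nfatc2 (-0.51). The highest relative value was that of ca-Nfatc2 replicate 4, whose marker mean was the lowest of all libraries (log2 11.9, against 13.9 to 14.5 in GFP libraries). Between ca-Nfatc2 and ca-Nfatc1 no member's difference passed on this scale (exact permutation adjusted p = 0.429 to 0.984). This test does not use the shared islet pools, and Slc2a2 relative to the markers was lower with ca-Nfatc2 on 5 of 5 days (log2 difference -0.20, exact sign-flip p = 0.0625, the smallest that 5 days allow).

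**Figure D4:**
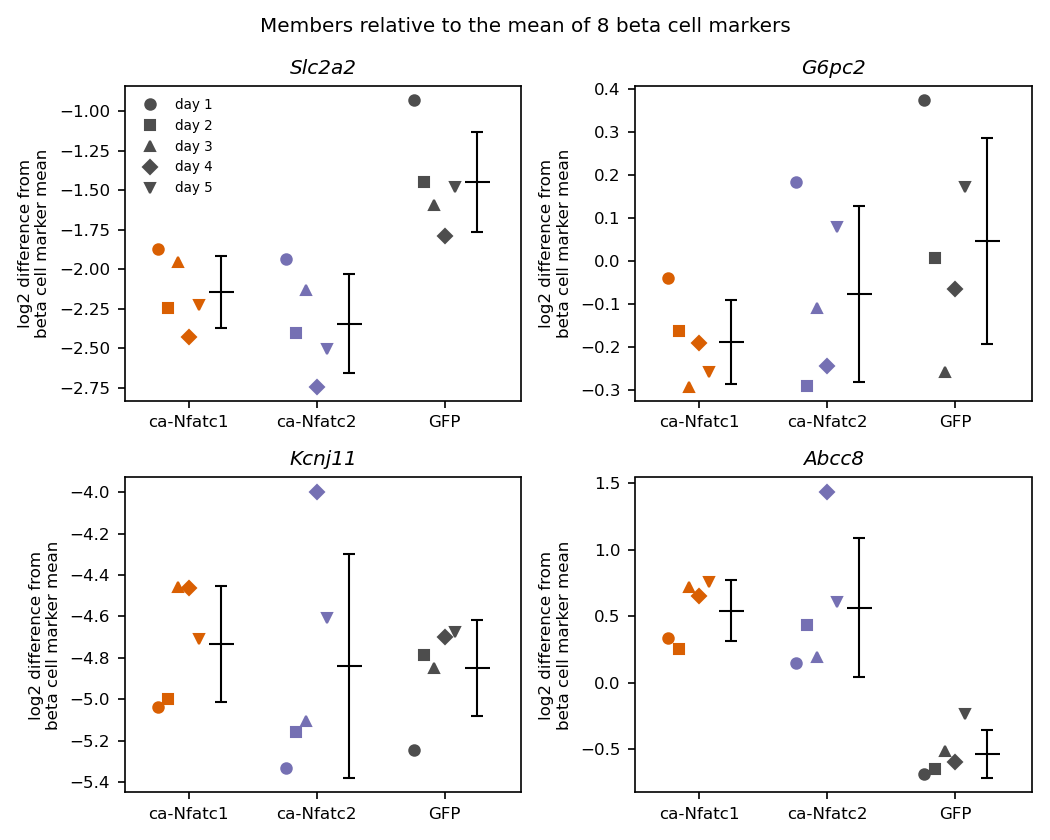
Log2 value of each member minus the mean log2 value of 8 beta cell markers in the same library (vertical axes, which do not start at 0), by group. Points are libraries, shapes are days and black bars are mean ± SD (n = 5). Slc2a2 lies lower in both ca-NFAT groups than in GFP, Abcc8 lies higher, and G6pc2 and Kcnj11 overlap between groups.

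Around the members, 53 of 57 listed pathway genes were tested. With ca-Nfatc1 37 of them were called, with ca-Nfatc2 37, and 28 differed between the ca-NFATs. Over all tested genes, 56.8%, 68.6% and 49.3% were called in either direction in these contrasts, so the counts for ca-Nfatc2 against GFP and between the ca-NFATs are near the background. Among 9 tested genes of glucose entry and the glucose 6-phosphate cycle, 2 rose and 3 fell with ca-Nfatc1 (median log2 fold change -0.09), and 2 rose and 3 fell with ca-Nfatc2 (median -0.01). The largest rise was that of Slc2a3, the high-affinity transporter GLUT3, at 693 ± 133 with ca-Nfatc1 and 983 ± 127 with ca-Nfatc2, against 119 ± 41.3 with GFP (SD, n = 5, log2 fold changes 2.59 and 3.11). Of the tested glucose transporter genes, Slc2a3 moved opposite to Slc2a2. Hk1, a hexokinase of high glucose affinity that beta cells normally keep low, rose by 0.98 and 0.60 on the log2 scale (limma adjusted p = 2.10e-04 and 0.00795).

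Slc37a4, which carries glucose 6-phosphate into the endoplasmic reticulum where G6pc2 acts, fell with both (log2 fold changes -0.53 and -0.80, limma adjusted p = 2.67e-04 and 2.04e-06). G6pc3, the widely expressed glucose 6-phosphatase, fell slightly with ca-Nfatc1 (-0.23, adjusted p = 0.00996) and did not pass with ca-Nfatc2 (-0.01, adjusted p = 0.866). Pfkfb2, a regulator of glycolysis, and Hk3 fell with ca-Nfatc2 (-0.51 and -0.56) and had values of -0.29 and -0.09 with ca-Nfatc1 that did not pass. Hkdc1 was called lower with ca-Nfatc1 (-1.65) at very low levels, 1.92 ± 1.34 against 7.99 ± 2.93 with GFP (SD, n = 5), and Hk2 passed with neither. Slc2a4, Slc5a1 and G6pc, the liver glucose 6-phosphatase, were below the filter.

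The alternative channel subunits were scarce. Abcc9 (SUR2), which replaces Abcc8 in heart and smooth muscle, fell with either ca-NFAT (-0.48 and -0.85 in log2, limma adjusted p = 0.0313 and 4.59e-04). Kcnj8 (Kir6.1) had values of -0.31 and -0.50 and passed with neither (adjusted p = 0.322 and 0.0916). Per kb, Abcc8 exceeded Abcc9 173 to 1 with ca-Nfatc1 and 148 to 1 with ca-Nfatc2, against 118 to 1 with GFP. Kcnj11 exceeded Kcnj8 by less, 6.84 to 1 with ca-Nfatc1 and 4.70 to 1 with ca-Nfatc2, against 10.5 to 1 with GFP.

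Among 5 binding partners of the channel, Rapgef4 (Epac2), a cyclic AMP sensor that binds SUR1, fell with both ca-NFATs (-0.31 and -0.66, limma adjusted p = 0.00784 and 5.67e-06). Ank2, which anchors Kir6.2 at the membrane, fell as well (-0.36 and -0.33). Pclo fell with ca-Nfatc2 (-0.81), Rims2 rose with ca-Nfatc1 (0.26), and Stx1a did not pass against GFP with either. In total 1 rose and 2 fell with ca-Nfatc1, and 0 rose and 3 fell with ca-Nfatc2.

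Downstream of channel closure, 1 rose and 8 fell of 11 genes of membrane excitability with either ca-NFAT, with a median log2 fold change of -0.28 for ca-Nfatc1 and -0.73 for ca-Nfatc2. Trpm5, a calcium-activated cation channel, fell most (-1.59 and -2.43), followed by the sodium channel Scn9a (-0.92 and -1.26), the background potassium channel Kcnk16 (-0.65 and -1.25) and Trpm4 (-0.53 and -0.98). Between the ca-NFATs, 8 of the 11 were lower with ca-Nfatc2 and 0 higher.

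Genes that link glycolysis to ATP moved in both directions, 4 up and 6 down of 13 with ca-Nfatc1 and 5 up and 4 down with ca-Nfatc2. Both enzymes of the glycerol phosphate shuttle fell, with log2 fold changes of -1.15 and -1.59 for Gpd2 and -1.38 and -1.23 for Gpd1. Slc25a11, a mitochondrial carrier of oxoglutarate and malate, rose (0.62 and 0.44). Cs, citrate synthase, fell with ca-Nfatc1 (-0.50) and had a value of -0.06 with ca-Nfatc2. Slc25a12 and Slc25a1 passed with neither.

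Of 13 islet transcription factors, several of which are known to act on Slc2a2 and the channel genes in mouse beta cells, 1 rose and 8 fell with ca-Nfatc1, and 1 rose and 9 fell with ca-Nfatc2 (medians -0.36 and -0.54). Mafa (-1.42 and -2.36), Pdx1 (-1.02 and -1.54) and Rfx6 (-0.87 and -1.48) fell with either ca-NFAT, and Pdx1 and Rfx6 also passed as lower with ca-Nfatc2 than with ca-Nfatc1. Isl1 rose (2.06 and 0.50). Foxa1 and Hnf4a passed with neither.

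**Figure D5:**
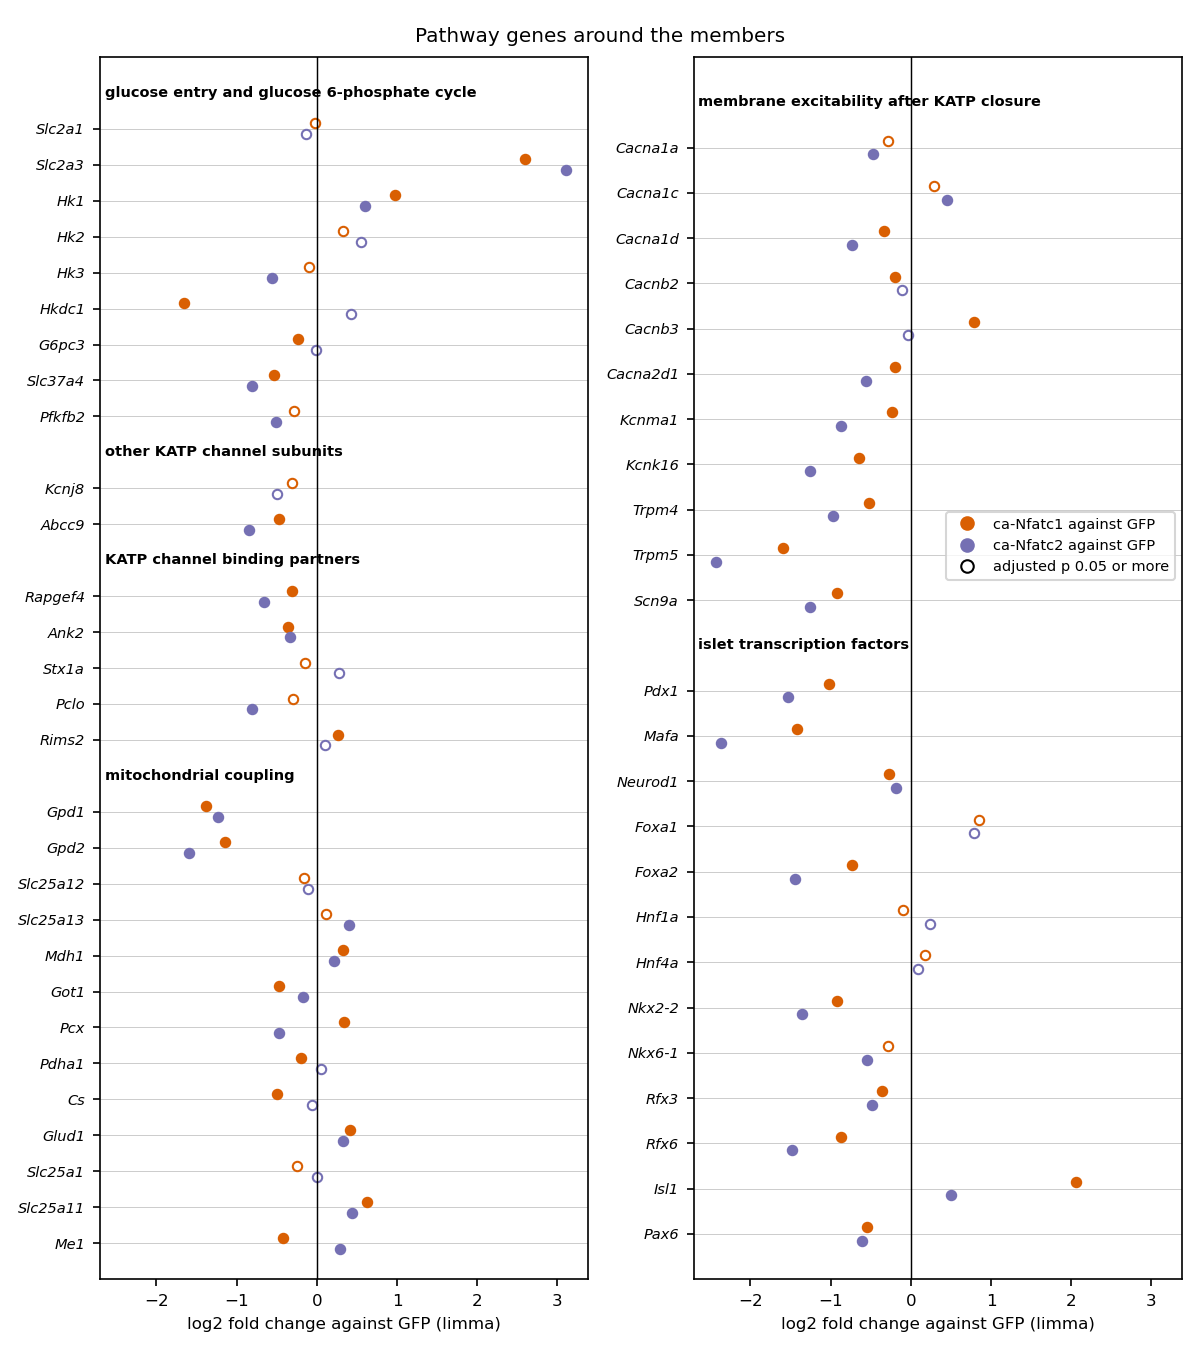
Log2 fold changes against GFP (horizontal axis) of the 53 tested pathway genes (rows, grouped by list) for ca-Nfatc1 and ca-Nfatc2. Filled points passed a limma adjusted p of 0.05 and open points did not. Slc2a3 lies farthest to the right, at 2.59 and 3.11, and Trpm5 (-2.43) and Mafa (-2.36) lie farthest to the left with ca-Nfatc2.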

How the data were processed

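RNA of 15 whole-islet libraries was sequenced. The authors mapped the reads with bowtie to RefSeq transcripts of mm10, estimated expected counts with RSEM and scaled each library by median-by-ratio normalization, and the deposited signal per gene is this normalized expected count. Versions of bowtie and RSEM are not given in the sources used here. Group means, fold changes and posterior probabilities of expression patterns in the deposited tables were not used. The values are not whole reads, so no count model was applied. Genes with a 75th percentile above 10 were tested with limma 3.58.1 (R 4.3.3) on log2(value + 1), with a variance trend, 1 coefficient per group and Benjamini-Hochberg adjustment over 14151 genes. Ratios were compared by exact permutation of libraries (two-sided, Python 3.11.15). The fit was tested on simulated data.

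Libraries of a day come from the same islet pool, per the series' design, so the day pairs them. Residuals of same-day libraries correlated at 0.0544 to 0.473 (mean 0.219, 15 pairs), against a mean of -0.0551 for 60 pairs of different days. The main model has no day term, and the day block is an alternative, beside other pseudocounts (0.5 and 10), no filter or a mean of at least 100, equal totals, quantile normalization, only the groups compared, and each library left out.

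The members, the gene lists and the tests were chosen with earlier results of these data known. Named genes are the members, all tested genes of glucose entry and of the other KATP subunits, up to 4 called genes with the largest changes against GFP and up to 2 not called from each other list, and the 3 genes most like each member, with Ins2 and Gcg as anchors. Some cell type markers are named as well, and so are Cacnb3 and Cacna1c, which rose among the genes of membrane excitability. The 27 entries whose symbols had become dates are not named. Some genes of the lists, and 1 ratio, are not reported here and were left out of the counts and of the adjustment over ratios. Levels per kb use the longest GENCODE transcript that matches a RefSeq mRNA, not the transcripts present. Depth was estimated from the most frequent low value of a library, taken as 1 expected count.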

Additional observations from a re-analysis of the deposited data

How the results depend on the processing

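Of 702 recomputed values, over 36 results and 23 settings, 684 were labelled as kept. A fold change or ratio was kept if its direction and its side of the threshold stayed. A count of called genes was kept if it stayed near its main value. Between the ca-NFATs, the main counts were 3 members and 28 of 53 pathway genes. The day block gave 4 and 37, and no filter gave 2 members and 22 of 57 pathway genes, all labelled as kept. For a ratio, leaving out a library of neither group leaves the value as it was. All calls of a member against GFP were among the 684. The exceptions follow. With the day (replicate) block, G6pc2 between the ca-NFATs kept a log2 fold change of -0.49 and passed (limma adjusted p = 0.0112), and quantile normalization gave -0.56 (adjusted p = 0.0263). The block changed no other call of a member. Without a filter on low values, Slc2a2 between the ca-NFATs kept -0.80 and lost its call (adjusted p = 0.0950), with 20308 genes tested. Leaving out 1 library at a time gave -1.01 to -0.51 for Slc2a2 and -0.66 to -0.25 for G6pc2 between the ca-NFATs. G6pc2 relative to the beta cell markers with ca-Nfatc1 against GFP ranged from -0.31 to -0.15, passing without GFP replicate 3 (exact permutation adjusted p = 0.0476). Values that changed sign were not called: Kcnj11 relative to the markers ranged from -0.20 to 0.13 for ca-Nfatc2 against GFP and from -0.32 to 0.02 (0.0157 without ca-Nfatc2 replicate 1) between the ca-NFATs, and Abcc8 from -0.20 to 0.12 between the ca-NFATs. The cause was not tested.

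For the ratios the day pairing was used in an exact sign-flip test, which cannot go below p = 0.0625 and so gives no call, and 11 of all 18 differences, among them the 8 called, had the same sign on 5 of 5 days. The precision for Kcnj11 is limited by its expected counts, down to 163 in a library. No untransduced islets and no sorted cells were analysed here.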
